A study of Mus musculus with 9 samples.

Results

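The genes described here are 3 FoxO transcription factors, Foxo1, Foxo3 and Foxo4, and 7 genes of protein breakdown and autophagy that are best known from wasting muscle: Fbxo32, Trim63, Bnip3, Map1lc3a, Gabarapl1, Sqstm1 and Ulk1. They were taken by name from the deposited table, and all 10 were found among its 45706 genes. RNA sequencing had been done on satellite cells, the resident stem cells of skeletal muscle, from wild-type C57Bl6 mice aged 12 to 20 weeks. The cells were freshly isolated from muscle, proliferating in culture for at least 3 days (20% fetal calf serum and 2.5 ng/ml human FGF-2), or turned into myotubes by a further 6 days in 2% horse serum. Each stage had 3 libraries, described as independent samples from different animals. No treatment or genetic change was applied to any group, and the labels name no treatment meant to cause atrophy.

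FoxO proteins are transcription factors that insulin and growth factors restrain through the kinase Akt, which phosphorylates them and sends them out of the nucleus. When this restraint is lifted in adult muscle, they switch on the ubiquitin ligases atrogin-1 and MuRF1, which mark muscle proteins for the proteasome, and genes of autophagy, the delivery of cell contents to the lysosome. In satellite cells FoxO factors are also known for keeping the resting state. Their activity is set largely by phosphorylation and location, neither of which a transcript level records.

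Values are normalized read counts, which are gene read counts that the authors scaled between libraries and rounded. Library totals ran between 20.1 M and 26.2 M for freshly isolated cells, between 17.8 M and 18.2 M for proliferating cells and between 19.5 M and 20.8 M for myotubes. The spacing of low values put the reads behind them at 12.0 M to 19.4 M for freshly isolated cells, at 20.4 M to 24.3 M for proliferating cells and at 22.0 M to 22.8 M for myotubes. The stages were compared with limma on log2(value + 1), and a gene was called higher or lower when limma's p, adjusted by Benjamini and Hochberg's method across all 17291 tested genes, was below 0.05. Log2 changes are given ± SE from this fit of 9 libraries, with 3 per stage, and folds are on the same log2(value + 1) scale.

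The stage labels were checked on landmark genes. Pax7, the transcription factor of the lineage, had 11694 to 15700 in freshly isolated, 2556 to 3330 in proliferating and 1192 to 1645 in myotube libraries. The proliferation marker Mki67 had 66 to 471, 22495 to 25457 and 7550 to 13203 in the same stages, so transcripts of dividing cells were present in the myotube libraries too. Embryonic myosin Myh3 had 23 to 83, 3055 to 23038 and 296158 to 335321. A pair of libraries differed from their stage mates. Freshly isolated replicate 1 had the fewest estimated reads and a Myog value, for the transcription factor of differentiating myoblasts, of 1257, against 62 and 218 in the other 2, while proliferating replicate 1 had 2179, against 9530 and 8749.

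Markers of other cells and of handling also moved with the stages. All 10 genes of dissociation stress, among them Fos, were lower in both cultured stages than in freshly isolated cells. Of all tested genes 35.7% were lower in proliferating cells and 37.3% in myotubes. The 10 stress genes summed to 411874 to 484604 in freshly isolated, 7390 to 7867 in proliferating and 4730 to 4813 in myotube libraries. The 6 fibroblast markers summed to 8493 to 9608, 23 to 34 and 199 to 501 in the same order, with Dpt and Cxcl14 at 0 in every proliferating library. Dpt and Col15a1 made up most of the freshly isolated sum, and Pdgfra went the other way, with 19, 13 and 22 in proliferating libraries against 4, 5 and 9 in freshly isolated ones (adjusted p = 0.0078). The 6 endothelial markers summed to 105 to 227, 54 to 98 and 20 to 28, and the 6 leukocyte markers to 662 to 689, 65 to 89 and 246 to 260, with Ptprc at 0, 0 and 14 in freshly isolated libraries. Most of the leukocyte sum was Cd68 in freshly isolated libraries, at 549 to 629, and Itgam in myotubes, at 213 to 229, where Cd68 had 21 to 25. The 4 Schwann cell markers summed to 617 to 1168, 229 to 239 and 182 to 311. All 4 were called lower in myotubes than in freshly isolated cells, where 37.3% of all tested genes were. Most of this sum was Ngfr, at 541 to 965 in freshly isolated libraries, where Sox10 had 11 to 15. The 4 erythroid markers summed to 15 to 23, 50 to 96 and 4 to 10. Genes of adult myofibres, 10 in all, summed to 3322 to 4127, 3052 to 10775 and 215485 to 307700. Mylpf, at 89869 to 141671, and Myh1, at 81073 to 103059, made up most of the myotube sum. Mylk2 went the other way, with 400 to 465 in freshly isolated and 76 to 118 in myotube libraries. In proliferating against freshly isolated cells 2 of the 10 were higher and 4 lower, where 37.6% and 35.7% of all tested genes were. The 6 pericyte and smooth muscle markers summed to 2939 to 4159, 8653 to 20083 and 62655 to 63599. Acta2, also made by differentiating muscle cells, was 6866 to 18161 of this in proliferating libraries and 60374 to 61639 in myotubes. Against freshly isolated cells 2 of the 6 were higher and 2 lower in proliferating cells, where 37.6% and 35.7% of all tested genes were. The lower ones were Rgs5, at 4 to 10 against 20 to 100, and Abcc9, at 11 to 60 against 442 to 640. Cspg4 was higher in proliferating cells but lower in myotubes, at 148 to 177 against 371 to 414 in freshly isolated libraries. The part of dissociation stress and of these other cells in the results was not tested. In such bulk samples, fewer cells of a type and less RNA per cell cannot be told apart.

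The 10 genes fell into 3 patterns. Foxo1, Foxo3, Gabarapl1, Sqstm1 and Ulk1 were highest in freshly isolated cells and stayed far lower in both cultured stages. Fbxo32, Map1lc3a and Foxo4 were lowest in proliferating cells, and Trim63 and Bnip3 were high in myotubes alone. In proliferating against freshly isolated cells 8 of the 10 were lower and 2 higher, where 73.3% of all tested genes were called, 35.7% lower and 37.6% higher. In myotubes against proliferating cells 6 were higher and 1 lower, where 54.1% were called, 28.6% higher and 25.5% lower. In myotubes against freshly isolated cells 4 were higher and 5 lower, where 77.6% were called, 40.2% higher and 37.3% lower. The libraries of the 2 stages did not overlap for 9, 8 and 9 of the 10, against 74.0%, 70.9% and 78.7% of all tested genes. Without freshly isolated replicate 1 and proliferating replicate 1 the number called was 9, 8 and 9. Of all 17291 tested genes 13322, 10713 and 14273 were then called, against 12679, 9353 and 13416 with all libraries. With so many genes called, the counts say little about these 10, and the results lie in the size and course of single genes. The median log2 change of the 10 was -2.21, 1.11 and -1.05 in the 3 comparisons, against 0.07, 0.04 and 0.10 over all tested genes.

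**Figure D1:**
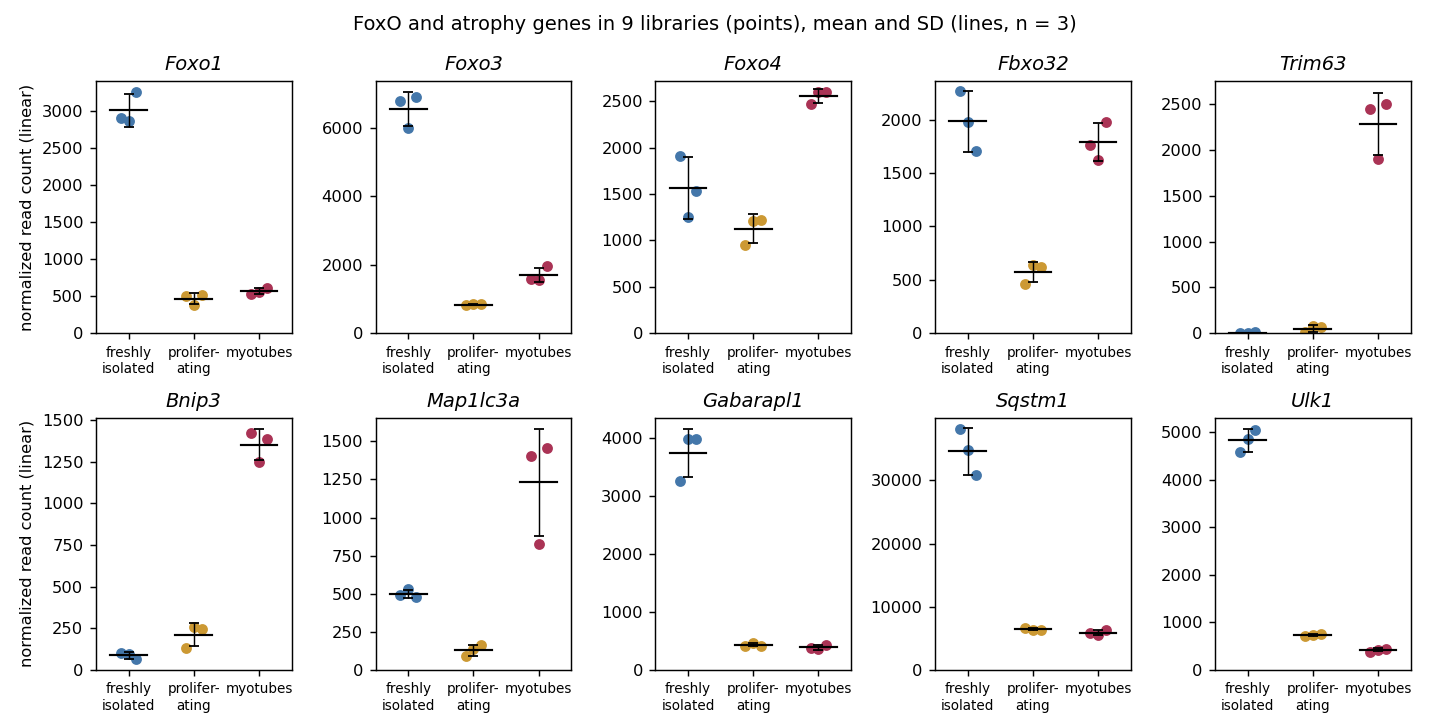
Normalized read counts (linear axes from 0) of the 10 genes in freshly isolated, proliferating and myotube libraries, with 1 point per library and the mean and SD of 3 libraries as black lines. Foxo1, Foxo3, Gabarapl1, Sqstm1 and Ulk1 stand highest in freshly isolated cells, while the 3 myotube libraries of Trim63, at 1900 to 2509, and of Bnip3, at 1246 to 1421, lie far above their other libraries.

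Among the transcription factors, Foxo1 and Foxo3 transcripts were several-fold lower in both cultured stages than in freshly isolated cells. Foxo1 (ENSMUSG00000044167, chromosome 3, 52268336 to 52353221 on GRCm38) encodes a factor that in muscle is bound up with fuel use and atrophy. It had 2902, 2870 and 3264 in freshly isolated, 505, 379 and 516 in proliferating and 525, 561 and 611 in myotube libraries. The lowest freshly isolated library was far above every cultured one, and the myotube libraries lay just above the proliferating ones without overlap. The log2 change was -2.70 ± 0.13 in proliferating against freshly isolated cells (adjusted p = 4.76e-08) and -2.41 ± 0.13 in myotubes against freshly isolated cells (adjusted p = 7.46e-08). Between myotubes and proliferating cells the difference was 0.29 ± 0.13 and did not pass (adjusted p = 0.0898, 95% interval -0.01 to 0.58). It passed without freshly isolated replicate 1 and proliferating replicate 1 (0.35, adjusted p = 0.0433).

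Foxo3 (ENSMUSG00000048756, chromosome 10, 42181841 to 42276755), the factor first tied to atrogin-1 and to autophagy in muscle, was also far lower in culture, less so in myotubes than in proliferating cells. It had 6798, 5993 and 6914 in freshly isolated, 822, 845 and 839 in proliferating and 1588, 1565 and 1952 in myotube libraries. No stages overlapped, and the proliferating libraries lay within a few percent of each other. Proliferating cells had 7.84-fold less than freshly isolated cells (log2 change -2.97 ± 0.10, adjusted p = 5.68e-09). Myotubes had 2.03-fold more than proliferating cells (1.02 ± 0.10, adjusted p = 2.15e-05) and 3.87-fold less than freshly isolated cells.

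Foxo4 (ENSMUSG00000042903, chromosome X, 101254528 to 101260873), which Akt restrains like the other 2, took another course. It had 1911, 1250 and 1534 in freshly isolated, 947, 1214 and 1217 in proliferating and 2471, 2603 and 2604 in myotube libraries. The myotube libraries were above all others, whereas the lowest freshly isolated library was only just above the proliferating ones. Myotubes had 2.29-fold more than proliferating cells (log2 change 1.19 ± 0.15, adjusted p = 1.00e-04) and 1.66-fold more than freshly isolated cells (0.73 ± 0.15, adjusted p = 0.00136). The difference between proliferating and freshly isolated cells was small (-0.46 ± 0.15, adjusted p = 0.0196). It lost its call without proliferating replicate 1 (-0.34, adjusted p = 0.0782), and without both that library and freshly isolated replicate 1 (-0.19, adjusted p = 0.123).

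Per kb of exon, so that genes of different length can be set side by side, Foxo3 was the leading FoxO transcript in freshly isolated cells and Foxo4 in both cultured stages. Foxo3 made up 52.2 ± 1.6% of the summed level of the 3 genes in freshly isolated, 22.7 ± 1.8% in proliferating and 21.9 ± 1.9% in myotube libraries (SD, n = 3 each). Foxo4 made up 26.8 ± 3.5%, 66.1 ± 3.7% and 71.7 ± 2.0% in the same order, and Foxo1 21.0 ± 1.9%, 11.1 ± 2.3% and 6.37 ± 0.18%. The shares of Foxo4 did not overlap between any pair of stages, reaching 30.8% at most in freshly isolated libraries and 69.2% at most in proliferating ones, against 69.5% at least in myotubes. The summed level per kb was 1664 ± 160, 487 ± 42.9 and 1024 ± 48.4. Shares within a library do not depend on how the libraries were scaled, but they rest on the exon lengths of GENCODE vM21.

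**Figure D2:**
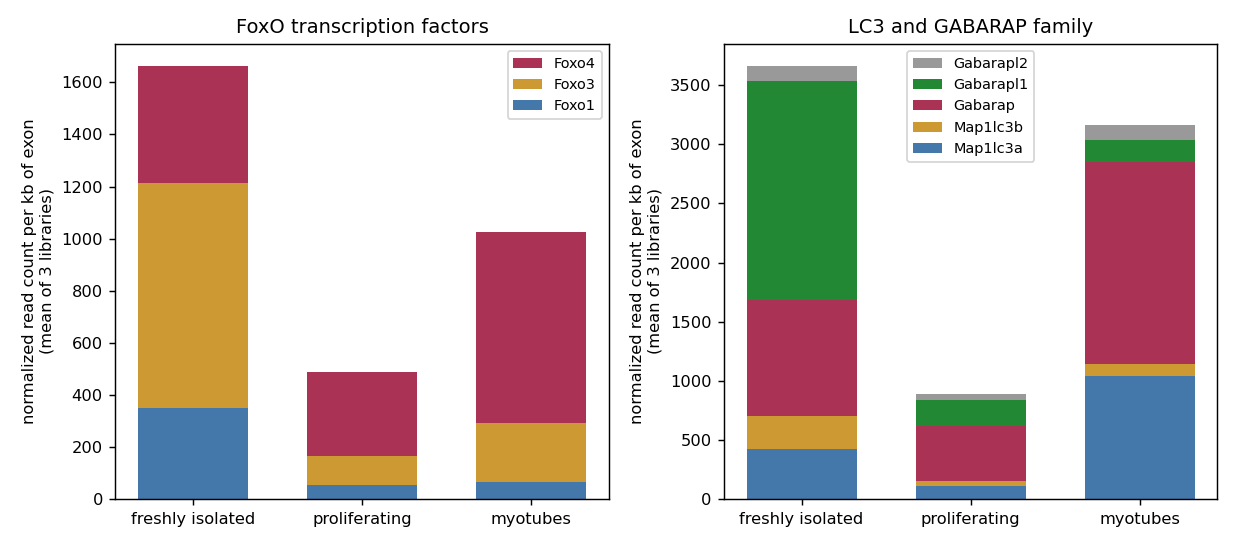
Summed normalized read count per kb of exon (linear axis from 0, mean of 3 libraries per stage) of the FoxO genes on the left and of the LC3 and GABARAP family on the right, split by gene. Foxo4 is the largest part of the FoxO bar in proliferating cells and myotubes, and Gabarapl1, at 50.6% of its family in freshly isolated cells, shrinks to 6.12% in myotubes.

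The ubiquitin ligase genes Fbxo32 and Trim63, often read together as signs of FoxO activity in wasting muscle, did not share a pattern. Fbxo32 (ENSMUSG00000022358, chromosome 15, 58175879 to 58214932) encodes atrogin-1. It had 2272, 1977 and 1705 in freshly isolated, 463, 635 and 617 in proliferating and 1767, 1620 and 1978 in myotube libraries. The proliferating libraries were the lowest, and the freshly isolated and myotube libraries overlapped. Proliferating cells had 3.48-fold less than freshly isolated cells (log2 change -1.80 ± 0.15, adjusted p = 1.98e-06), and myotubes had 3.14-fold more than proliferating cells (1.65 ± 0.15, adjusted p = 1.05e-05). Myotubes and freshly isolated cells differed by -0.15 ± 0.15 (adjusted p = 0.393, 95% interval -0.48 to 0.19). After rescaling to a common upper quartile this difference was called (-0.42, adjusted p = 0.0176), but that scaling also moved the median of all genes by -0.27.

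Trim63 (ENSMUSG00000028834, chromosome 4, 134315120 to 134329629) encodes MuRF1, a ligase that sits on the sarcomere and ubiquitinates myosin and other thick filament proteins. It had 0, 1 and 6 in freshly isolated, 6, 76 and 64 in proliferating and 2453, 1900 and 2509 in myotube libraries. Freshly isolated cells were at the limit of detection, with an estimated 0, 1 and 6 reads, while the myotube libraries held 2227 or more. Myotubes had 69.4-fold more than proliferating cells (log2 change 6.12 ± 0.91, adjusted p = 0.000263), and the log2 change was 5.00 without proliferating replicate 1 and 6.73 without proliferating replicate 2. Against freshly isolated cells the log2 change in myotubes was 9.88 ± 0.91 (adjusted p = 3.39e-06). It was 7.56 with a pseudocount of 10, so no fold is drawn from it. It was 9.25 without freshly isolated replicate 1 and 10.65 without replicate 3. Proliferating and freshly isolated libraries overlapped at 6, although the fit called the difference (3.76 ± 0.91, adjusted p = 0.0036). With a pseudocount of 10 that change was 1.95. It was 4.88 without proliferating replicate 1 and 3.15 without replicate 2, and 3.13 and 4.53 without freshly isolated replicates 1 and 3.

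Proliferating replicate 1, with 6 for Trim63, was also low in genes of early muscle differentiation. Besides its Myog value given above, its Myh3 was 3055, against 23038 and 15385 in the other proliferating libraries. It was the lowest of its stage for 8 of the 10 genes, and for 35.3% of all tested genes. In myotubes replicate 3 was the highest for 9 of the 10, and for 36.2% of all tested genes, and replicate 2 was the lowest for 7, and for 38.1%. The part of the differentiation of each culture in these differences was not tested.

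Per kb, Trim63 stood at 3.41, 2.88 and 3.11 times the level of Fbxo32 in the myotube libraries. In proliferating libraries the ratio was 0.0318, 0.294 and 0.255, and in freshly isolated ones it was at most 0.00864. The ratio therefore separated the 3 stages without overlap, and only in myotubes was MuRF1 the more abundant transcript of the pair. Freshly isolated replicate 3 and proliferating replicate 1 had the same Trim63 level per kb, 2.11, from an estimated 6 and 7 reads. Their ratios differed only through Fbxo32, at 244 and 66.4 per kb.

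Bnip3 (ENSMUSG00000078566, chromosome 7, 138890836 to 138909519) encodes a protein of the outer mitochondrial membrane that binds LC3 proteins and so marks mitochondria for autophagy. FoxO3 in muscle and hypoxia in many cells are known to raise it. It had 102, 94 and 62 in freshly isolated, 131, 254 and 245 in proliferating and 1421, 1246 and 1390 in myotube libraries. The stages did not overlap, and Bnip3 was the only one of the 10 whose libraries rose at each step without overlap. Myotubes had 6.68-fold more than proliferating cells (log2 change 2.74 ± 0.27, adjusted p = 1.66e-05), and proliferating cells 2.38-fold more than freshly isolated cells (1.25 ± 0.27, adjusted p = 0.00171). Its relative Bnip3l, another mitochondrial receptor, had a log2 change of 0.55 (adjusted p = 0.00122) in myotubes against proliferating cells and of -0.17 (adjusted p = 0.151) in proliferating against freshly isolated cells.

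**Figure D3:**
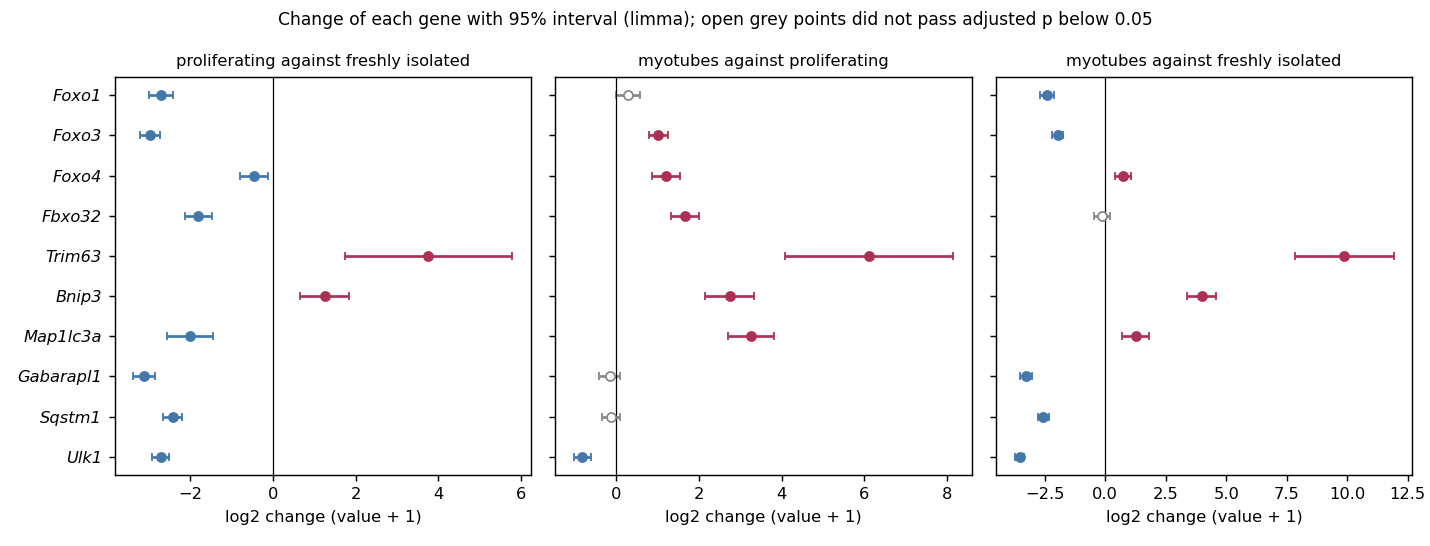
Log2 change of each gene in 3 comparisons on the log2(value + 1) scale, with its 95% interval from limma. Filled points passed an adjusted p below 0.05 and open grey points did not. The widest intervals are those of Trim63, which was near 0 in freshly isolated cells, and open points mark Foxo1, Gabarapl1 and Sqstm1 in myotubes against proliferating cells and Fbxo32 in myotubes against freshly isolated cells.

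Promoter sequences (RefSeq, GRCm38.p6) were found for 7 of the 10, which are Foxo1, Foxo3, Trim63, Bnip3, Gabarapl1, Sqstm1 and Ulk1. They were searched on both strands for the FoxO motif GTAAACA, for TCACGTGA, bound by TFEB and its relatives, and for CAGCTG, an E-box used by MyoD. The last 2 read the same on both strands, and none of the matches overlapped. Among 32851 mouse promoters of this set, 3.65% held the FoxO motif, 0.974% the TFEB motif and 16.3% the E-box. Given here are the promoters of Trim63 and Bnip3, which were high in myotubes alone, and of Sqstm1 and Ulk1, which were highest in freshly isolated cells, each from 5′ to 3′ along the gene with motif matches in capitals.
Trim63, chr4:134314870-134315169, plus strand: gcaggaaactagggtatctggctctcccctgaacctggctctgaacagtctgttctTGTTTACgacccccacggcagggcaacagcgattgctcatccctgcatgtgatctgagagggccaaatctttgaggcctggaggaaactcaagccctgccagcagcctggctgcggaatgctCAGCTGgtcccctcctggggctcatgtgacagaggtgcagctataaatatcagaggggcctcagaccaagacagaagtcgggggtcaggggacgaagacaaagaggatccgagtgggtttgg
Bnip3, chr7:138909457-138909756, minus strand: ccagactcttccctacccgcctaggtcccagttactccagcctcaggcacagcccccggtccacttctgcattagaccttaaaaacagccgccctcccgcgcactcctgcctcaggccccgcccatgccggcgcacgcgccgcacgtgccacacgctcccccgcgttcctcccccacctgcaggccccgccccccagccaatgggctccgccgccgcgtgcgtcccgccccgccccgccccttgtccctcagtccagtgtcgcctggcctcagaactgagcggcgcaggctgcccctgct
Sqstm1, chr11:50210771-50211070, minus strand: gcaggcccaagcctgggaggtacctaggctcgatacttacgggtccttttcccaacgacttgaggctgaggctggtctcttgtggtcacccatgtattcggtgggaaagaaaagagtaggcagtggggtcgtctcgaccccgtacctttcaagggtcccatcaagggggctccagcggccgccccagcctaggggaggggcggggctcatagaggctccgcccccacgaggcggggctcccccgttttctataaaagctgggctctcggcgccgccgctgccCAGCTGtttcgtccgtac
Ulk1, chr5:110810032-110810331, minus strand: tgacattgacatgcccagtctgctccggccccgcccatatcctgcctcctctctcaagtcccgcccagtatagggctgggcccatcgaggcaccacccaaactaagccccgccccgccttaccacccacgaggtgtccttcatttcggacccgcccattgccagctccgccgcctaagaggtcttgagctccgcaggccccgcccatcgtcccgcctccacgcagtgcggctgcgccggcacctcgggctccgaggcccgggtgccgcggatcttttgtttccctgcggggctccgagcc
Trim63 was the only one of the 7 with the FoxO motif, on the reverse strand and so reading TGTTTAC, beginning 194 bases before the start of the gene. It also held an E-box that begins 72 bases before the start. Sqstm1 held an E-box that begins 32 bases after its first base, and none of the 7 held the TFEB motif. The other promoters, among them those of Foxo1, Foxo3 and Gabarapl1, had no match in this window, which says nothing of sites elsewhere.

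Of the autophagy genes, Ulk1, Gabarapl1 and Sqstm1 followed Foxo1 and Foxo3, with their highest level in freshly isolated cells. Ulk1 (ENSMUSG00000029512, chromosome 5, 110784488 to 110810097) encodes the kinase that starts autophagy when nutrients are short. It had 4580, 4861 and 5057 in freshly isolated, 716, 739 and 756 in proliferating and 381, 426 and 444 in myotube libraries. Its levels were lower in each stage than in the stage before, with no overlap, a pattern that no other of the 10 showed. The log2 change was -2.71 ± 0.09 in proliferating against freshly isolated cells (adjusted p = 4.23e-09) and -0.82 ± 0.09 in myotubes against proliferating cells (adjusted p = 3.54e-05). Myotubes were 11.6-fold below freshly isolated cells (-3.53 ± 0.09, adjusted p = 7.51e-10), and 8.0% of all tested genes had a lower value in that comparison. Its paralogue Ulk2 had a log2 change of 0.05 in the same comparison (adjusted p = 0.687), and the difference between the paralogues was not tested.

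Gabarapl1 (ENSMUSG00000030161, chromosome 6, 129533160 to 129542346) encodes a member of the LC3 and GABARAP family, small proteins that are attached to the growing autophagosome membrane and recruit cargo. It had 3255, 3983 and 3971 in freshly isolated, 414, 464 and 415 in proliferating and 383, 349 and 423 in myotube libraries. The freshly isolated libraries were far above the rest, and proliferating and myotube libraries overlapped. Proliferating cells had 8.63-fold less than freshly isolated cells (log2 change -3.11 ± 0.12, adjusted p = 9.08e-09) and myotubes 9.67-fold less (-3.27 ± 0.12, adjusted p = 5.60e-09). Myotubes and proliferating cells differed by -0.16 ± 0.12 (adjusted p = 0.264, 95% interval -0.43 to 0.10).

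Map1lc3a (ENSMUSG00000027602, chromosome 2, 155276297 to 155278073) encodes LC3A, of the same family, and took another course. It had 492, 528 and 478 in freshly isolated, 89, 135 and 160 in proliferating and 1406, 826 and 1458 in myotube libraries. Proliferating libraries were the lowest and myotubes the highest, with no overlap even though myotube replicate 2 lay well below the other 2. Myotubes had 9.52-fold more than proliferating cells (log2 change 3.25 ± 0.25, adjusted p = 4.30e-06) and 2.39-fold more than freshly isolated cells (1.25 ± 0.25, adjusted p = 0.000996). In the family as a whole, per kb, Gabarapl1 made up 50.6 ± 1.6% in freshly isolated, 24.3 ± 2.2% in proliferating and 6.12 ± 0.62% in myotube libraries. Map1lc3a made up 11.6 ± 1.0%, 12.1 ± 2.4% and 32.5 ± 4.3%, and Gabarap 26.7 ± 0.73%, 52.3 ± 1.2% and 54.4 ± 2.8% (SD, n = 3 each). Map1lc3b made up 7.69%, 5.31% and 3.19%, and Gabarapl2 3.46%, 6.06% and 3.85%. The exon length used for Map1lc3b was 7517 bases, against 1181 to 2325 for the other genes of the family. The shares rest on these lengths, and that of Map1lc3b most of all. The summed level per kb was 3666 ± 361, 886 ± 81.9 and 3161 ± 559, with Gabarapl1 in the lead in freshly isolated cells and Gabarap in both cultured stages.

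Sqstm1 (ENSMUSG00000015837, chromosome 11, 50199366 to 50210827) encodes p62, the receptor that ties ubiquitinated cargo to LC3 proteins and is itself degraded with it. It had 38174, 34797 and 30784 in freshly isolated, 6610, 6309 and 6359 in proliferating and 5894, 5445 and 6317 in myotube libraries. It was the most abundant of the 10 per kb in every stage, at 10300 ± 1100, 1915 ± 48.2 and 1753 ± 130 (SD, n = 3 each). Proliferating cells had 5.36-fold less than freshly isolated cells (log2 change -2.42 ± 0.10, adjusted p = 1.65e-08). Proliferating and myotube libraries overlapped, and the difference of -0.13 ± 0.10 in myotubes did not pass (adjusted p = 0.305, 95% interval -0.35 to 0.09). It was called with quantile normalization (-0.30, adjusted p = 0.0142), which moved the median of all genes by -0.14 in this comparison. Sqstm1 is also known as a gene of the oxidative stress response, and the dissociation stress genes were high in the same freshly isolated libraries. Their part in its level was not tested.

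Ranked per kb, the other genes changed places between stages. In freshly isolated cells Gabarapl1 (1856 ± 207) came after Sqstm1, followed by Foxo3 (868 ± 66.2) and Ulk1 (745 ± 36.9). Foxo4 (449 ± 95.2), Map1lc3a (423 ± 21.9) and Foxo1 (348 ± 25.3) came next, and the range of Foxo4 overlapped with those of the other 2. Fbxo32 had 285 ± 40.7, and Bnip3 and Trim63 were last. In myotubes Map1lc3a (1042 ± 297), Trim63 (805 ± 118), Foxo4 (734 ± 22.0) and Bnip3 (597 ± 41.2) came after Sqstm1. Map1lc3a, Trim63 and Foxo4 lay within the spread of each other. Foxo1 (65.3 ± 4.98) and Ulk1 (64.3 ± 5.00) were the lowest and could not be ranked.

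Some genes on the other strand share exon bases with these genes, and whether reads were counted by strand is unknown here, so their reads cannot be told apart. Mrnip, across from Sqstm1, had 110 to 211 in freshly isolated libraries, and 1700101I11Rik, across from Gabarapl1, had 16 to 23. Gm15943, across from Fbxo32, had 0 to 22, and Gm20402, across from Foxo1, was at 0 in all 9 libraries. For Gm45507, which shares 504 exon bases with Bnip3, no value was used here.

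The wider pathway was described with lists of known genes, by counts of called members and median log2 changes. Of 15 genes of the insulin and Akt branch upstream of FoxO 3 were higher and 10 lower in proliferating against freshly isolated cells (median -0.54), where 37.6% of all tested genes were higher and 35.7% lower. Irs2, an adaptor of the insulin receptor that FoxO factors are known to activate, had 416, 458 and 411 in proliferating libraries, against 14210, 13920 and 12430 in freshly isolated ones (log2 change -4.98 ± 0.10, adjusted p = 2.48e-10). Sgk1, a kinase related to Akt that also phosphorylates FoxO3, had 735, 628 and 604 against 14413, 14188 and 11964 (-4.36 ± 0.13, adjusted p = 2.08e-09). Sgk1 is also a stress-induced gene. In myotubes against proliferating cells 4 were higher and 9 lower (median -0.32), against 28.6% and 25.5% of all tested genes, with Akt2, the Akt form of insulin-responsive tissues, 2.29-fold higher. In myotubes against freshly isolated cells 5 were higher and 9 lower (median -0.62), against 40.2% and 37.3%.

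Of 16 further FoxO target genes, known from various tissues, 3 were higher and 12 lower in proliferating against freshly isolated cells (median log2 change -1.33), against 37.6% and 35.7% of all tested genes. Txnip, an inhibitor of glucose uptake and of thioredoxin, had 7, 19 and 8 in proliferating libraries, against 3375, 3462 and 3237 in freshly isolated ones (-8.22 ± 0.32, adjusted p = 1.14e-08, and -7.35 with a pseudocount of 10). Klf15, a transcription factor of muscle metabolism, had 3, 2 and 3 in proliferating libraries against 174, 221 and 324 in freshly isolated ones, with a fitted change of -6.00 that was -4.26 with a pseudocount of 10. In myotubes against proliferating cells 8 were higher and 3 lower (median 0.37), where 28.6% and 25.5% of all tested genes were. Txnip was higher again in myotubes, with 283, 254 and 416 (4.79 ± 0.32, adjusted p = 2.13e-06, and 3.95 with a pseudocount of 10), as was Sesn1, an inhibitor of mTORC1, which had 833, 735 and 880 in myotube libraries against 169, 189 and 219 in proliferating ones (2.08 ± 0.14, adjusted p = 1.85e-06). In myotubes against freshly isolated cells 3 were higher and 11 lower (median -0.78), against 40.2% and 37.3%.

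Among 12 other ubiquitin ligases and atrophy genes 6 were higher and 1 lower in myotubes against proliferating cells (median 0.20), a share called near the 54.1% of all tested genes. The sarcomeric relatives of MuRF1 were, like Trim63, highest in myotubes. Trim55 (MuRF2) had 5584, 5928 and 6100 in myotube libraries, against 601, 1180 and 1013 in proliferating ones, and 24, 25 and 38 in freshly isolated ones. Trim54 (MuRF3) had 896, 807 and 965 in myotube libraries, against 75, 150 and 153 in proliferating ones (2.88 ± 0.64, adjusted p = 0.00352). Mstn, the secreted inhibitor of muscle growth myostatin, had 988, 895 and 1003 in myotube libraries against 6, 14 and 7 in proliferating ones (6.67 ± 0.38, adjusted p = 1.06e-06, and 5.70 with a pseudocount of 10). In proliferating against freshly isolated cells 5 of the 12 were higher and 5 lower (median 0.29, with 73.3% of all tested genes called), and in myotubes against freshly isolated cells 5 and 4 (median 0.15, with 77.6% called).

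Of 15 genes of autophagy initiation and nucleation, the core machinery beside Ulk1, 2 were higher and 7 lower in proliferating against freshly isolated cells (median -0.31), where 73.3% of all tested genes were called. In myotubes against proliferating cells 6 were higher and 4 lower (median 0.09), where 54.1% were called. In myotubes against freshly isolated cells 5 were higher and 5 lower (median 0.11), where 77.6% were called. Atg2a, which moves lipid to the growing membrane, went the way of Ulk1. It had 377, 408 and 466 in myotube libraries and 896, 955 and 847 in proliferating ones, against 3976, 3708 and 3962 in freshly isolated ones. Wipi1, of the same list, went the other way. It had 1028, 892 and 888 in proliferating libraries against 257, 162 and 155 in freshly isolated ones (2.32 ± 0.18, adjusted p = 1.29e-06). Its myotube libraries had 1052, 904 and 940. Of 13 genes of the LC3 family and its conjugation 9 were higher in myotubes against proliferating cells and 4 did not pass (median 0.74), where 28.6% of all tested genes were higher. In proliferating against freshly isolated cells 2 were higher and 5 lower (median -0.12), where 73.3% of all tested genes were called. In myotubes against freshly isolated cells 8 were higher and 2 lower (median 0.70), where 77.6% were called. Myotube and proliferating libraries did not overlap for any of the 13, as for 70.9% of all tested genes. The ubiquitin-like protein gene Atg12 had 2048, 1734 and 2184 in myotube libraries against 305, 305 and 377 in proliferating ones (2.59 ± 0.18, adjusted p = 2.21e-06). Map1lc3b, the usual LC3 marker, had 363, 356 and 333 in proliferating libraries against 2168, 2182 and 1960 in freshly isolated ones (-2.58 ± 0.10, adjusted p = 1.44e-08).

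Of 8 other autophagy receptors 5 were higher and 1 lower in myotubes against proliferating cells (median 0.56), where 28.6% of all tested genes were higher and 25.5% lower. In proliferating against freshly isolated cells 2 were higher and 4 lower (median -0.41), where 73.3% of all tested genes were called. In myotubes against freshly isolated cells 5 were higher and 1 lower (median 0.54), where 77.6% were called. Nbr1, a receptor built like p62, had 5860, 5325 and 5780 in myotube libraries against 1388, 1746 and 1748 in proliferating ones (1.80 ± 0.12, adjusted p = 1.72e-06), while Sqstm1 did not pass in that comparison. Optn, the receptor optineurin and 1 of the 2 that were higher in proliferating cells, had 1413, 1527 and 1702 in proliferating libraries against 87, 115 and 80 in freshly isolated ones (4.04 ± 0.14, adjusted p = 5.99e-09). Of 11 lysosome genes and regulators 9 were higher and 2 lower in myotubes against proliferating cells (median 0.88), where 28.6% and 25.5% of all tested genes were. They counted 5 higher and 5 lower in proliferating against freshly isolated cells (median 0.18), where 73.3% of all tested genes were called. In myotubes against freshly isolated cells they counted 6 higher and 2 lower (median 0.64), where 77.6% were called. Lamp1, a lysosomal membrane protein gene, was 5.00-fold higher in myotubes than in freshly isolated cells (2.32 ± 0.10, adjusted p = 1.26e-08). Tfeb, the transcription factor of lysosome genes, had 75, 106 and 120 in proliferating libraries against 364, 468 and 346 in freshly isolated ones (-1.97 ± 0.21, adjusted p = 1.26e-05).

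Of 10 regulators of FoxO, counting the fourth family member Foxo6, 7 were higher and 2 lower in proliferating against freshly isolated cells (median 0.67), against 37.6% and 35.7% of all tested genes. Skp2, a ubiquitin ligase subunit that targets FOXO1 and the cell cycle inhibitor p27, had 1822, 2100 and 1772 in proliferating libraries against 192, 145 and 176 in freshly isolated ones (3.47 ± 0.16, adjusted p = 3.46e-08). In myotubes against proliferating cells 6 were higher and 3 lower (median 0.48), against 28.6% and 25.5% of all tested genes. Among the higher was Prkaa2, a catalytic subunit of the energy sensor AMPK, with 1043, 956 and 1091 in myotube libraries against 165, 217 and 183 in proliferating ones. All 10 were called in myotubes against freshly isolated cells, 8 higher and 2 lower (median 1.66), where 77.6% of all tested genes were called. Of 10 mTORC1 genes 6 were higher and 2 lower in proliferating against freshly isolated cells (median 0.30), where 73.3% of all tested genes were called. In myotubes against proliferating cells 4 were higher and 4 lower (median 0.04), where 54.1% were called. In myotubes against freshly isolated cells 5 were higher and 2 lower (median 0.25), where 77.6% were called.

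**Figure D4:**
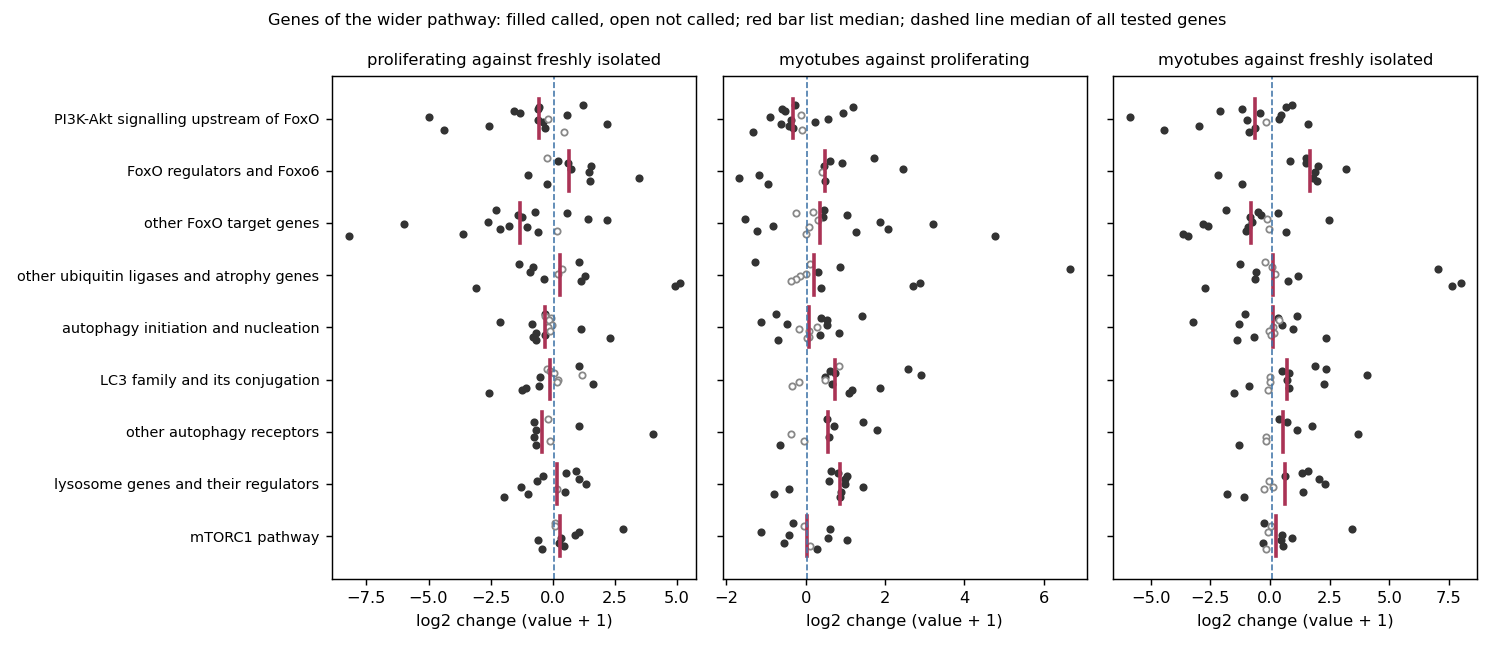
Log2 changes (log2(value + 1) scale) of the genes of 9 pathway lists in 3 comparisons, with 1 point per gene, filled where called at an adjusted p below 0.05 and open where not. Red bars are list medians and the dashed line is the median of all tested genes. The medians of the lysosome and LC3 lists lie to its right in myotubes against proliferating cells. The median of the FoxO target list lies to its left in both comparisons with freshly isolated cells. Some genes of each of these lists lie on the other side.

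The genes whose course over the 9 libraries was most like that of Foxo1, Foxo3 and Fbxo32 were found by the root mean square difference of log2 values, each gene centred on its own mean. Closest to Foxo1 were Rel (0.11), Acbd4 (0.12) and Arhgap26 (0.16). Closest to Foxo3 were Per3 (0.12), Zbtb4 (0.13) and Ccdc117 (0.15), of which Per3, a gene of the circadian clock, averaged 1245 in freshly isolated, 148 in proliferating and 308 in myotube libraries. Closest to Fbxo32 were Cir1 (0.13), Myl12b (0.14) and Nat9 (0.14).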

How the data were processed

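The 10 genes and the lists of related genes were chosen with earlier results of these data known. Per the submitters' processing notes, STAR 2.4.0a was the aligner, mm10 (GRCm38) the genome and featureCounts 1.4.5-p1 the counter. Per the labels' protocols, libraries came from ribosome-depleted total RNA and a stranded kit. The score values deposited by the authors are gene read counts scaled between libraries and rounded, and neither the scaling method nor the strand setting of counting is given in the sources used here. The freshly isolated columns were matched to their stage by elimination, since the other prefixes fit the other stages. Reads per library were estimated from the spacing of low values, with 1 read at 0.747 to 2.18 units.

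A gene was tested if 3 or more libraries had a value of 10 or above, which 17291 genes met. Values entered limma 3.58.1 (R 4.3.3) as log2(value + 1), with a mean-variance trend and 3 stage means over 9 libraries. Positions and exon lengths are from GENCODE vM21. Named list genes are the up to 2 largest called changes per list and comparison whose higher stage averaged 100 or above, of which some are printed. Bnip3l, Ulk2 and Gabarap were added after their values were seen. Alternatives changed the pseudocount, filter, scaling, trend, block and libraries. Python 3.11.15 and pandas 2.3.3 were used.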

Additional observations from a re-analysis of the deposited data

How the results depend on the processing

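Each of the 30 log2 changes of the 10 genes was recomputed under 19 alternatives. Of these 570 values 565 kept their direction and side of the threshold, none reversed, and the 5 others are given in the report beside Foxo1, Foxo4, Fbxo32 and Sqstm1. Called members numbered 9 to 10 in proliferating against freshly isolated cells, 7 in myotubes against proliferating cells and 9 in myotubes against freshly isolated cells when 1 library was left out. Counts over all genes were then 11749 to 13418, 7859 to 11304 and 12570 to 14132. The fit with the replicate number as a block called 12563, 9088 and 13311 genes in these comparisons, against 12679, 9353 and 13416 without it, and changed no call of the 10. Deviations from the stage means correlated at -0.034 to 0.027 for equal replicate numbers and at -0.058 to 0.059 for different ones. No shared deviation of equal numbers was seen, which cannot show whether the libraries were paired. Rescaling to a common upper quartile moved the median of all genes by -0.22, -0.04 and -0.27, and quantile normalization by 0.06, -0.14 and -0.09. The 1026 values of the other genes chosen by the naming rule all kept direction and call. That rule takes the largest called changes of each list, so this says nothing of the smaller changes behind the list counts. Low counts limit Trim63 and Bnip3 in freshly isolated cells, where Bnip3 rests on 47 to 89 estimated reads per library.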
